A study of Homo sapiens with 8 samples.

Results

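Amino acids enter a cell through carriers in its plasma membrane, and 10 genes for such carriers were followed here in colorectal cancer cells treated with Z325. The genes were listed by name and not by a threshold on measured values, though with earlier results of these data known: *SLC7A5*, *SLC7A1*, *SLC1A4*, *SLC1A5*, *SLC38A1*, *SLC38A2*, *SLC6A9*, *SLC43A1*, *SLC7A2* and *SLC1A1*. All 10 were among the 63241 genes listed for NCI-H716, and 4 were among the 28043 genes used for HCT116. The other 6, *SLC7A5*, *SLC7A1*, *SLC1A5*, *SLC38A1*, *SLC38A2* and *SLC43A1*, were not analysed in HCT116, because the HCT116 table used here covers chromosomes 1 to 8 and the start of chromosome 9.

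The study docked small molecules to the kinase domains of the fibroblast growth factor receptors (FGFRs), receptor tyrosine kinases that drive growth and survival signalling. Its compound ZINC000101867325, called Z325, was given to HCT116 and NCI-H716, both established human colorectal cancer lines. RNA-seq was used to ask how the transcriptome of each line changed with the compound. The 8 libraries fell into 4 groups of 2, namely HCT116 control, HCT116 with Z325, NCI-H716 control and NCI-H716 with Z325. Each reaction used about 100 cells, whose polyadenylated RNA was amplified as full-length cDNA. Z325 was dissolved in DMSO. The labels give no dose. The study set a single concentration for the experiments that followed its viability assay, without restating it for RNA-seq. The treatment time and what the control cells received are not given for RNA-seq in the sources used here. Each group came from 1 cell line, and the study calls its replicates biological duplicates.

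Membrane carriers for amino acids work in distinct ways. Exchangers such as LAT1, the product of *SLC7A5*, release an internal amino acid for each one they take up, and LAT1 reaches the membrane only when bound to the heavy chain CD98, made by *SLC3A2*. Sodium-coupled carriers such as SNAT1 and SNAT2, made by *SLC38A1* and *SLC38A2*, load the cell with small neutral amino acids, some of which the exchangers then spend. Cells short of amino acids switch on the kinase GCN2 and the transcription factor ATF4, whose known targets include several carrier genes and enzymes of amino acid synthesis.

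Depth differed between libraries, and so did the way reads were counted. The HCT116 libraries held 13183792 to 13396225 counts, except for replicate 2 of the Z325 group, which held 3434620. The NCI-H716 libraries held 10210239 to 19738840 counts. Among genes with 1 to 10 counts, 70.2% to 88.7% of the counts were even in HCT116 and 39.9% to 40.4% in NCI-H716, as when both mates of a pair are counted. NCI-H716 had counts above 0 in at least 1 library for all 10 epithelial and intestinal markers checked and all 10 enteroendocrine markers. The same held for all 10 markers of blood, fibroblast, endothelial and liver cells. The epithelial sum was 771 to 808 CPM (counts scaled to the library's total) in the controls and 659 to 675 CPM with Z325. The enteroendocrine sum was 3056 to 3475 CPM in the controls and 3019 to 3050 CPM with Z325. Both were lower with Z325 without overlap, the enteroendocrine sum by a narrow margin. Of the single genes tested in NCI-H716, 25.1% were separated in that direction. The 10 markers of blood, fibroblast, endothelial and liver cells summed to 558 to 654 CPM in its controls and 651 to 786 CPM with Z325, mostly from *ALB* and *COL3A1*. In HCT116 the 2 epithelial markers listed, *EPCAM* and *VIL1*, summed to 1424 to 1655 CPM. The 4 enteroendocrine markers listed there summed to 20.5 to 22.5 CPM in the controls and 14.8 to 17.8 CPM with Z325. The 5 other-cell markers listed there summed to 0.145 to 0.307 CPM in the controls and 0.938 to 1.72 CPM with Z325. The part of these markers in the results was not tested. In bulk RNA, fewer cells of a kind and less RNA per cell cannot be told apart.

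Some carrier genes are known targets of ATF4, so the sequences around their start sites were searched for TGATGNAA, the composite element that ATF4 can bind with a C/EBP partner, on both strands. RefSeq start-site windows of 300 bases on GRCh38.p14 were at hand for 9 members, 14 windows in all. The element was found in 4 windows (28.6%), each of a different member, against 3.62% of all 35116 windows. The 4 matches and the one in a window of *SLC3A2* are shown on the gene's own strand, 5′ to 3′, with the match in capitals. In *SLC1A4* and *SLC3A2* the element reads on the opposite strand, so its reverse complement is the part in capitals.

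SLC7A1: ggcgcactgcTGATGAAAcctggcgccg
SLC1A4: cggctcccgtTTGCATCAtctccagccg
SLC38A1: cagacccgaaTGATGAAAagggatcagc
SLC1A5: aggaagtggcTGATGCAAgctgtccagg
SLC3A2: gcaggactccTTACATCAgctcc

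The *SLC7A1* stretch is chr13:29595664-29595691 on the minus strand and its match is exonic. That of *SLC1A4*, chr2:64989382-64989409 on the plus strand, has a match that is partly exonic. The *SLC38A1* stretch, chr12:46266503-46266530 on the minus strand, lies within the annotated gene and its match overlaps no GENCODE exon. The *SLC1A5* stretch, chr19:46784894-46784921 on the minus strand, lies upstream of a RefSeq start site that is itself within the annotated gene. That of *SLC3A2* is chr11:62881726-62881748 on the plus strand. No match to these letters was found in the windows of *SLC38A2*, *SLC7A5*, *SLC43A1*, *SLC6A9* or *SLC1A1*.

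The antioxidant response element TGACNNNGC, which NRF2 can bind, was searched in the same way. It was found in 3 of the 14 windows (21.4%), against 13.3% of all windows, and no match to it shared bases with a match to TGATGNAA. The matches in *SLC7A5* (chr16:87869491-87869519, minus strand) and *SLC7A1* (chr13:29595755-29595783, minus strand) were these. The third was in *SLC1A5*. Beside the members, the window of *SLC3A2* that held TGATGNAA also held a match to TGACNNNGC (chr11:62881652-62881680, plus strand).

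SLC7A5: gcggggttccTGACGCAGCtgcgggcggc
SLC7A1: tgcccggcggTGACGCGGCcgagcgggcc

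In NCI-H716 most of the members lay higher with Z325 than in the controls, but none passed the test after adjustment over all genes. The 4 with the smallest p-values were carriers of small neutral or of cationic amino acids, *SLC38A2* at 1.76-fold, *SLC7A1* at 1.68-fold, *SLC38A1* at 1.53-fold and *SLC1A4* at 1.49-fold the control level. *SLC7A5* was at 1.56-fold. By edgeR's quasi-likelihood test 0 of the 9 members tested had an adjusted p under 0.05, where 0.502% of all 14142 genes did. At an unadjusted p under 0.05 there were 5 members, all higher, against 7.59% of all genes that were higher and 9.27% that were lower at that level. DESeq2 called 3 of them (*SLC38A2*, *SLC7A1* and *SLC38A1*), where it called 2.57% of all genes, and limma on log2(FPKM + 1) called 0. When 1 library was left out, the log2 fold change of *SLC38A2* ran from 0.66 to 1.01. That of *SLC7A1* ran from 0.69 to 0.83 and that of *SLC1A4* from 0.40 to 0.78. The median log2 fold change was 0.58 over the 9 members and -0.01 over all genes tested. The 2 groups did not overlap in 6 of the 9, all higher with Z325, where 24.3% of all genes were separated in that direction and 25.1% in the other.

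*SLC38A2* encodes SNAT2, a sodium-coupled carrier of small neutral amino acids (chromosome 12, bases 46358188 to 46372773, minus strand, GRCh38). It measured 157 and 199 CPM in the controls and 305 and 323 CPM with Z325. Both treated libraries lay above both controls. The log2 fold change was 0.82 (SE 0.17, n = 2 per group), with an adjusted p of 0.0801 by edgeR, and from 5.8e-09 to 0.668 over the alternatives.

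Its neighbour on chromosome 12, *SLC38A1*, encodes the related carrier SNAT1 (bases 46183063 to 46270017, minus strand). It measured 130 and 147 CPM in the controls and 216 and 206 CPM with Z325, again with no overlap. The log2 fold change was 0.61 (SE 0.16), with an adjusted p of 0.129 by edgeR.

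*SLC7A1* encodes CAT1, the main carrier for arginine, lysine and ornithine in most cells (chromosome 13, bases 29509414 to 29595688, minus strand). Its level was 42.7 and 46.7 CPM in the controls against 71.5 and 79.1 CPM with Z325. The replicates of each group lay close together and the groups were apart. The log2 fold change was 0.75 (SE 0.18), with an adjusted p of 0.107 by edgeR.

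The other cationic carrier, *SLC7A2*, encodes CAT2 (chromosome 8, bases 17497088 to 17570573, plus strand). It measured 17.4 and 15.6 CPM in the controls and 19.2 and 19.3 CPM with Z325. The groups did not overlap, but the log2 fold change of 0.22 was no larger than its SE of 0.22 (adjusted p = 0.646 by edgeR).

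*SLC1A4* and *SLC1A5* encode ASCT1 and ASCT2, sodium-dependent exchangers of alanine, serine, cysteine and, for ASCT2, glutamine. *SLC1A4* (chromosome 2, bases 64988477 to 65023865, plus strand) measured 33.5 and 43.4 CPM in the controls and 51.6 and 62.9 CPM with Z325. Its groups were apart, with a log2 fold change of 0.58 (SE 0.20) and an adjusted p of 0.209 by edgeR. *SLC1A5* (chromosome 19, bases 46774883 to 46788594, minus strand) measured 84.7 and 93.1 CPM in the controls and 118 and 86.8 CPM with Z325. One treated library lay above both controls and the other between them, and the log2 fold change was 0.20 (SE 0.19, adjusted p = 0.632 by edgeR). The value for *SLC1A5* is uncertain, because 23.4% of its exon bases overlap an antisense long non-coding RNA gene, ENSG00000275719, and the cDNA kit does not mark strand.

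*SLC7A5* and *SLC43A1* encode LAT1 and LAT3, carriers of large neutral amino acids such as leucine. *SLC7A5* (chromosome 16, bases 87830023 to 87869507, minus strand) measured 7.88 and 7.08 CPM in the controls and 13.8 and 9.65 CPM with Z325. The groups did not overlap, though the treated libraries differed from each other more than the controls did. Its log2 fold change was 0.64 (SE 0.28), with an adjusted p of 0.29 by edgeR. It was 0.38 without replicate 1 of the Z325 group and 0.90 without replicate 2.

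Reads of *SLC7A5* can be shared with near copies, so its value is uncertain. Its longest coding transcript, of 4556 bases, matched the transcribed pseudogene *SLC7A5P1* over 538 bases at 96.7% identity and the gene ENSG00000291073 over 615 bases at 95.6%. ENSG00000291073 was assigned 72 and 5 counts in the controls and 9 and 18 with Z325, beside 104 and 73 and then 181 and 192 for *SLC7A5*. A further copy, ENSG00000288632, matched over 615 bases at 95.8%. It was assigned 32 and 0 counts in the controls and 14 and 21 with Z325. Both of these copies were highest in replicate 1 of the controls. The part of shared reads in the *SLC7A5* values was not tested.

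The controls of *SLC43A1* (chromosome 11, bases 57484534 to 57515780, minus strand) lay far apart. It measured 11.4 and 3.59 CPM in the controls and 8.86 and 5.88 CPM with Z325. The treated libraries fell between the controls, and the log2 fold change of -0.05 (SE 0.46, adjusted p = 0.972 by edgeR) moved to 1.04 without replicate 1 of the controls and to -0.62 without replicate 2.

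The remaining carriers were scarce. *SLC1A1* encodes EAAT3, which carries the acidic amino acids glutamate and aspartate and also cysteine, so its substrates are not all neutral or cationic (chromosome 9, bases 4490468 to 4587469, plus strand). It measured 3.18 and 1.75 CPM in the controls and 1.22 and 2.51 CPM with Z325. The groups overlapped, and the log2 fold change was -0.39 (SE 0.56, adjusted p = 0.769 by edgeR). *SLC6A9*, for the glycine carrier GLYT1 (chromosome 1, bases 43991500 to 44031467, minus strand), had 1 and 3 counts in the controls and 8 and 6 with Z325. It was too low to be tested and shares 7.87% of its exon bases with *CCDC24* on the other strand.

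**Figure D1:**
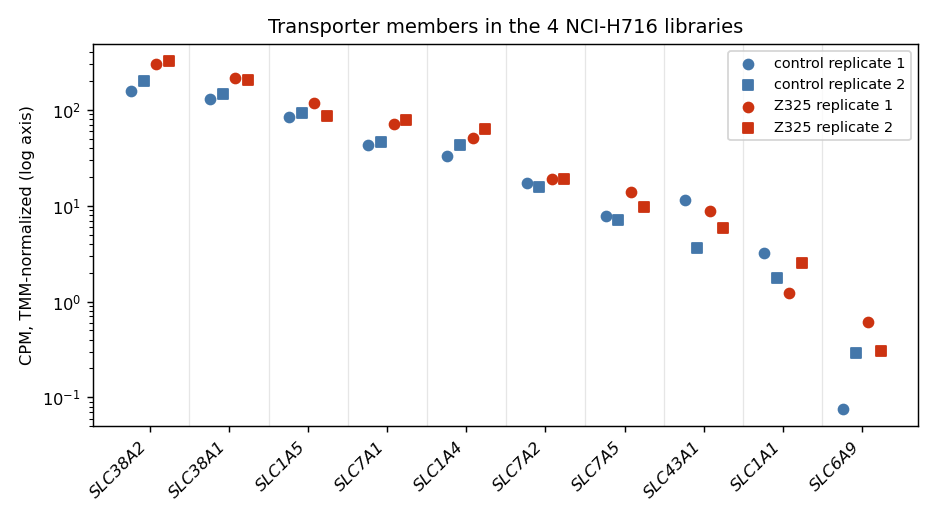
Level of each transporter gene in the 4 NCI-H716 libraries, in TMM-normalized CPM on a log axis, 1 point per library. *SLC38A2*, at 305 and 323 CPM with Z325, was the most abundant on this scale, and its points with Z325 lie above both controls, while those of *SLC43A1* and *SLC1A1* overlap.

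Levels of different genes were compared in TPM, a scale that corrects for transcript length as well as library total. *SLC1A5* (39 and 43.5 TPM) and *SLC38A2* (27.6 and 35.3 TPM) led in the controls. *SLC38A1* followed at 14.9 and 16.8 TPM, apart from its neighbours in both controls. *SLC1A4* (5.68 and 7.51 TPM), *SLC7A1* (4.53 and 4.97 TPM) and *SLC43A1* (4.08 and 1.29 TPM) came next in order of mean.

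The spread of *SLC43A1* across its controls reached those of the 2 genes below it. These were *SLC7A2* at 1.79 and 1.59 TPM and *SLC7A5* at 1.56 and 1.38 TPM, whose control values were next to each other without overlapping. *SLC1A1* was at 0.74 and 0.38 TPM and *SLC6A9* at 0.02 and 0.08 TPM. With Z325 the order at the top changed in 1 library. *SLC1A5* was at 53.4 and 38.8 TPM and *SLC38A2* at 52 and 54.5 TPM, so the pair overlapped in the treated group.

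The heavy chain that *SLC7A5* needs was far more abundant than *SLC7A5* itself, and it rose with Z325. *SLC3A2* was at 61.1 and 68 TPM in the controls and 147 and 135 TPM with Z325. On the CPM scale its log2 fold change was 1.14 (SE 0.16, adjusted p = 0.013 by edgeR), a 2.2-fold rise. Its adjusted p ranged from 2.0e-16 to 0.182 over the alternatives, limma on log2(FPKM + 1) did not call it, and without replicate 1 of the controls it was 0.142 by edgeR.

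*SLC3A2* also serves other light chains. *SLC7A11*, the light chain of the cystine and glutamate exchanger xCT, was at 3.63 and 4.40 TPM in the controls and 18.4 and 17.7 TPM with Z325. It rose 4.76-fold in CPM (log2 fold change 2.25, SE 0.18, adjusted p = 0.000404 by edgeR), with adjusted p from 5.3e-59 to 0.0927 over the alternatives. *SLC7A6*, the light chain of y+LAT2, was at 1.76 and 3.76 TPM in the controls and 2.64 and 3.29 TPM with Z325, where the groups overlapped. Its value is uncertain, since 44.4% of its exon bases overlap *SLC7A6OS* on the other strand. In the controls *SLC7A11* therefore stood above *SLC7A5* in both libraries, and with Z325 the distance between them was wider.

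**Figure D2:**
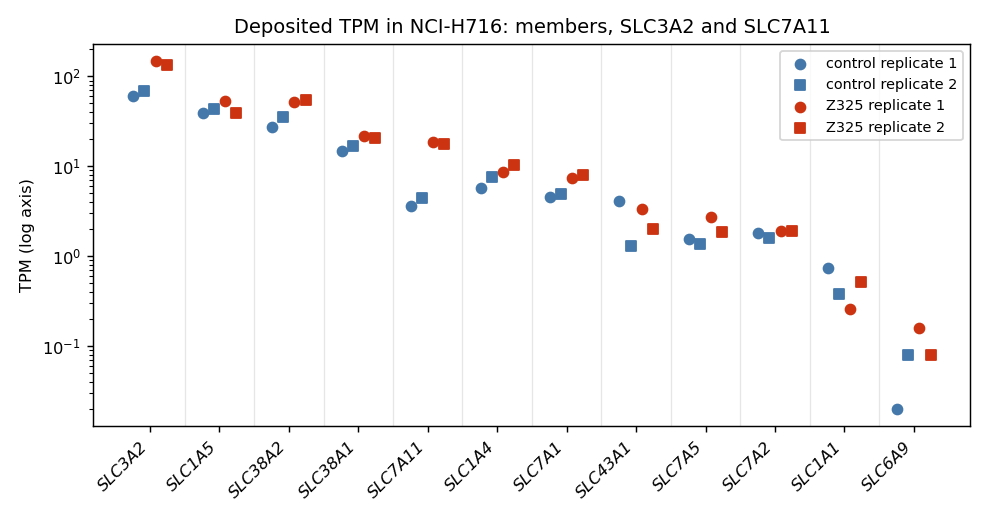
Deposited TPM in the 4 NCI-H716 libraries on a log axis, 1 point per library, for the transporter genes with *SLC3A2* and *SLC7A11* beside them. *SLC3A2* reached 147 and 135 TPM with Z325, while *SLC7A5* stayed between 1.38 and 2.70 TPM in all 4 libraries.

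In HCT116 the 4 members listed did not move together. By edgeR's quasi-likelihood test 0 of the 3 tested had an adjusted p under 0.05, where 5.78% of the 6491 genes tested did. At an unadjusted p under 0.05 there were 2, *SLC7A2* lower and *SLC1A4* higher, against 12.7% of all genes lower and 11.2% higher. DESeq2 called 1, *SLC7A2*, where it called 11.7% of all genes, and limma on log2(FPKM + 1) called 0. The groups did not overlap for *SLC7A2*, which was lower, as were 29% of all genes, and for *SLC1A4*, which was higher, as were 24.8% of all genes.

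*SLC7A2* had 119 and 88 counts in the controls and 32 and 4 with Z325, or 8.61 and 6.75 CPM against 2.5 and 1.15 CPM. Both treated libraries lay below both controls, and the lower of them was the shallow one. The log2 fold change was -1.94 (SE 0.51), with an adjusted p of 0.0625 by edgeR, and from 0.00174 to 0.378 over the alternatives. It passed the threshold without the shallow library (-1.59, adjusted p = 0.0151) and without the other treated library (-2.75, adjusted p = 0.00174), but not without control replicate 1 (-1.80, adjusted p = 0.378) or control replicate 2 (-2.15, adjusted p = 0.322).

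*SLC1A4* had 50 and 28 counts in the controls and 54 and 42 with Z325, or 3.62 and 2.15 CPM against 4.22 and 12 CPM. The high value was that of the shallow library, and the other treated library was close to a control. The log2 fold change was 1.43 (SE 0.60, adjusted p = 0.194 by edgeR). It was 0.57 without the shallow library and 2.04 with that library alone in the treated group, where the adjusted p was 0.00113, the lowest of a range up to 0.636 over the alternatives.

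*SLC1A1* had 80 and 122 counts in the controls and 94 and 40 with Z325, or 5.79 and 9.36 CPM against 7.35 and 11.5 CPM. The groups overlapped, with a log2 fold change of 0.28 (SE 0.42, adjusted p = 0.744 by edgeR). *SLC6A9* had 6 and 8 counts in the controls and 10 and 2 with Z325 and was too low to be tested.

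An interaction term for treatment by line, fitted over 7642 genes of both tables, tested whether the lines responded differently. The log2 fold change of *SLC7A2* was 2.09 higher in NCI-H716 than in HCT116 (SE 0.48, adjusted p = 0.117 by edgeR). For *SLC1A4* the difference was -0.73 (SE 0.56, adjusted p = 0.577), and for *SLC1A1* it was -0.69 (SE 0.74, adjusted p = 0.713). So 0 of the 3 members were called by edgeR, where 0.0654% of all genes were. At an unadjusted p under 0.05 there was 1, *SLC7A2*, against 14.3% of all genes. DESeq2 called *SLC7A2* (adjusted p = 0.0264), where it called 1.73% of all genes. Over the alternatives its adjusted p ran from 0.0215 to 0.359.

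**Figure D3:**
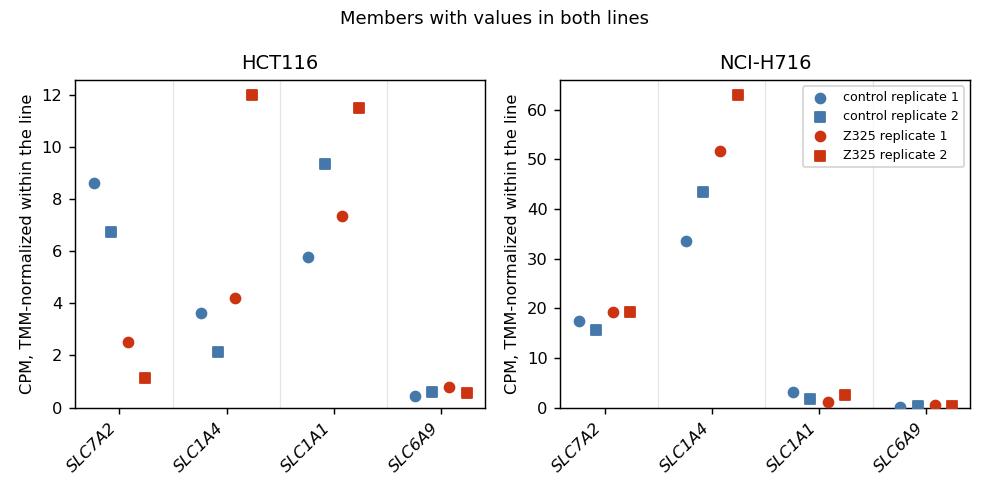
CPM of the members measured in both lines, HCT116 on the left and NCI-H716 on the right, 1 point per library, each line normalized on its own. *SLC7A2* lies at 2.5 and 1.15 CPM with Z325 in HCT116, below both controls, and at 19.2 and 19.3 CPM in NCI-H716, above both.

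Levels in the 2 lines were put side by side as TPM over the genes in both tables, with no test, because the reads were counted in different ways. *SLC1A4* was at 1.57 and 0.891 TPM in the HCT116 controls and 14.4 and 18.5 TPM in those of NCI-H716. *SLC7A2* was at 3.28 and 2.46 TPM in HCT116 and 4.55 and 3.94 TPM in NCI-H716. *SLC1A1* had the opposite order, with 4.38 and 6.78 TPM in HCT116 and 1.88 and 0.944 TPM in NCI-H716. The study also grew the 2 lines in different media and names added L-glutamine for HCT116 alone. Line, medium and counting method cannot be told apart here. Line and medium cannot be told apart in the interaction term either.

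Light chains that pair with a heavy chain, such as *SLC7A11*, were listed apart. The other carriers of the plasma membrane from the SLC1, SLC6, SLC7, SLC16, SLC36, SLC38 and SLC43 families did not pass the test. Of 28 listed, 10 were tested in NCI-H716 and 0 had an adjusted p under 0.05 by edgeR, where 0.502% of all genes did. At an unadjusted p under 0.05, 1, *SLC43A2*, was higher, against 7.59% of all genes, and DESeq2 and limma called 0. Their median log2 fold change was -0.17, against -0.01 over all genes tested. In HCT116, 14 were listed and 6 tested, with 0 called by edgeR, where 5.78% of all genes were. There 1, *SLC1A3*, was lower at an unadjusted p under 0.05, against 12.7% of all genes, and DESeq2 called 1, against 11.7%. The median was -0.58, against -0.03 over all genes tested.

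Genes of the amino acid starvation response other than carriers lay higher in NCI-H716. Of 21 tested, 4 rose by edgeR and 0 fell, where 0.403% of all genes rose. At an unadjusted p under 0.05, 15 were higher, against 7.59% of all genes, and the median log2 fold change was 0.91. The pseudokinase gene *TRIB3*, a known ATF4 target, rose 2.7-fold (log2 fold change 1.43, SE 0.16, adjusted p = 0.0041). *ASNS*, for asparagine synthetase, rose 2.32-fold, but 49.3% of its exon bases lie in another annotated gene on the same strand, so its value is uncertain. *PCK2*, for mitochondrial phosphoenolpyruvate carboxykinase, rose 2.25-fold, and *PHGDH*, which opens the synthesis of serine, rose 2.13-fold. DESeq2 called 10 of these 21 genes, against 2.57% of all genes, and limma on log2(FPKM + 1) called 0. The median log2 fold change of the 21 was 0.85 without replicate 1 of the controls and 0.99 without replicate 2. It was 0.91 without replicate 1 of the Z325 group and 0.99 without its replicate 2.

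In HCT116, 5 genes of the starvation response were tested and 1 rose, where 2.83% of all genes did. It was *STC2*, for the secreted glycoprotein stanniocalcin-2, at 2.26-fold (adjusted p = 0.0233 by edgeR). The median log2 fold change of the 5 was 0.56, against -0.03 over all genes tested. *ASNS* did not rise there, at 0.932-fold (adjusted p = 0.972 by edgeR), with 12 and 24 counts in the controls and 27 and 0 with Z325. *SLC7A11* also rose there, 6.3-fold (log2 fold change 2.66, SE 0.15, adjusted p = 0.000331 by edgeR), and *SLC3A2* was not analysed in that line.

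Genes for sensing and using amino acids were read against the same shares of all genes. Of 37 genes tested in the arm that reports amino acids to the growth kinase mTORC1, edgeR called 0 in NCI-H716, DESeq2 called 2 (2.57% of all genes), and 5 lay higher and 2 lower at an unadjusted p below 0.05. In HCT116, where 5.78% of all genes were called, 1 of 19 rose, *LAMTOR3*, part of the lysosomal scaffold for mTORC1, by 1.53-fold (adjusted p = 0.0424). Of 15 genes tested for enzymes of glutamine and glutamate in NCI-H716, edgeR called 0, DESeq2 called 3, and 2 lay higher and 2 lower at that level. In HCT116, 1 of 8 rose, *GFPT1*, which spends glutamine to start the hexosamine pathway, by 1.74-fold (adjusted p = 0.0428 by edgeR). At an unadjusted p under 0.05, 1 of the 8 lay higher and 3 lower, against 11.2% and 12.7% of all genes. DESeq2 called 1 higher and 2 lower, where it called 11.7% of all genes. Their median log2 fold change was -0.47, against -0.03 over all genes tested. The calls of *STC2*, *LAMTOR3* and *GFPT1* were lost when either HCT116 control was left out. In NCI-H716 *GFPT1* was at 2.01-fold with an adjusted p of 0.052.

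**Figure D4:**
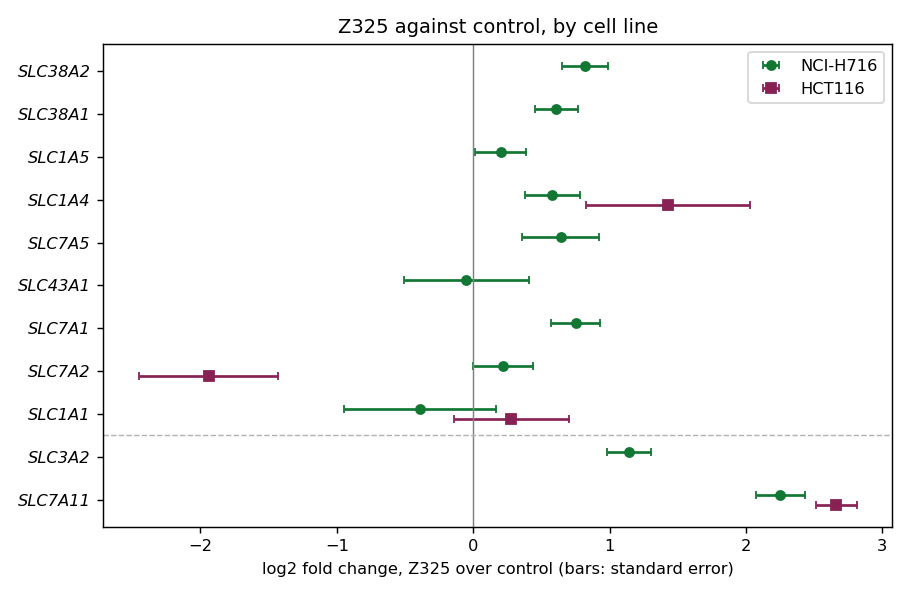
Log2 fold change of Z325 over control for each member tested and, below the dashed line, for *SLC3A2* and *SLC7A11*, by cell line, with bars of 1 standard error on each side. *SLC7A11* is at 2.66 in HCT116 and 2.25 in NCI-H716, and *SLC7A2* lies at -1.94 and 0.22.

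For each member tested in both lines, the genes most like it were taken as those with the smallest Euclidean distance over the 8 libraries, on log2 CPM after subtracting the control mean of the line, among 2985 genes with at least 10 CPM in each line. For *SLC1A4* they were *IBTK* (distance 0.62), *LRATD2* (1.05) and *GCLC* (1.12). For *SLC7A2* they were *YY1AP1* (0.61), *ZBTB20* (0.74) and *MTUS1* (0.81). *MTUS1* lies on chromosome 8 at bases 17643795 to 17801094, close to *SLC7A2*, and its log2 fold change was -2.03 in HCT116 and 0.16 in NCI-H716. For *SLC1A1* they were *TRIM7* (0.78), *NIT1* (0.86) and *MGLL* (0.86). These distances are a description, and the libraries they share include the shallow one.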

How the data were processed

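RNA-seq libraries of HCT116 and NCI-H716 cells, 2 per group, had been made from amplified full-length cDNA. The study's methods name TrimGalore, STAR with GRCh38, and RSEM, whereas the submitters' processing notes name Bowtie2 2.5.0, featureCounts and hg38. For NCI-H716, the authors deposited expected counts, TPM and FPKM per gene for each library, and 62666 of 63241 identifiers had a symbol in GENCODE v44. For HCT116, the authors deposited raw read counts per gene with exon lengths, from which FPKM and TPM were computed here. The table used here ends on chromosome 9, 4 broken lines were left out, and FPKM was taken over the genes listed. Duplicates differed beyond sampling noise (chi-square per gene 15.1 to 39.1), so all 8 libraries were kept.

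The expected counts were rounded to integers. Each line was fitted alone in edgeR 4.0.16 (R 4.3.3), with TMM, filterByExpr, the quasi-likelihood test and Benjamini-Hochberg adjustment over all genes tested, and called at an adjusted p under 0.05. CPM values are TMM-normalized. The difference between lines was the interaction term over 8 libraries. The steps were tested on simulated data. Exact permutation of 4 libraries cannot go below p = 0.333, and p-values reflect the spread between 2 libraries per group.

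Members and gene lists were chosen with earlier results of these data known. All 10 members are named, with *SLC3A2*, *SLC7A11*, up to 5 called genes per list and the 3 genes most like each member tested in both lines. *SLC43A2*, *SLC1A3*, *SLC7A6*, the near copies of *SLC7A5*, *ALB*, *COL3A1* and *GFPT1* in NCI-H716 were named after their values were seen. Near copies were found with blastn 2.17.0. Alternatives were DESeq2 1.42.0, library size alone, no filter, at least 10 counts in every library, limma 3.58.1 on log2(FPKM + 1) or log2(FPKM + 0.1), also with a mean FPKM of at least 1, the replicate number as a block and leaving out each library.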

Additional observations from a re-analysis of the deposited data

Results flagged for a closer look

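*SLC7A2* lay on opposite sides of the controls in the 2 lines. Both libraries with Z325 were below both controls in HCT116, as for 29% of all genes, and above both controls in NCI-H716, as for 24.3%. In NCI-H716 the log2 fold change was only 0.22 (SE 0.22, adjusted p = 0.646 by edgeR). The difference between the log2 fold changes was 2.09, and its test over all 7642 genes did not pass the threshold in edgeR (adjusted p = 0.117). In HCT116 the shallow library held 4 counts of the gene, and without that library the log2 fold change was -1.59. The groups of 2 libraries were too small to be searched for single outlying libraries.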

How the results depend on the processing

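Over 33 results and their alternatives, 439 combinations in all, 307 were labelled the same and 12 reversed. For the value of a single gene, the same means that its direction and its side of the threshold were kept. For a count of called genes, it means only that the count stayed within a fixed ratio of the main one. Members called in NCI-H716, 0 in edgeR, were 3 with DESeq2, 3 with no filter and 0 to 3 when 1 library was left out. The replicate numbers were not taken to pair the samples, since same-numbered libraries deviated together with a correlation of 0.198 in NCI-H716 and -0.0308 in HCT116 and only 2 pairs exist. With the replicate number as a block, 4 members were called in NCI-H716 (*SLC7A1*, *SLC1A4*, *SLC38A1* and *SLC38A2*) and 16.9% of all genes were, and 30 genes of the other lists. That fit, like those within a line without 1 library, leaves 1 residual degree of freedom per gene and rests on the spread shared over genes, and a lone library was assumed to vary like the other group. In HCT116 the block gave 0 members. Members called in HCT116 were 1 with DESeq2, 1 with no filter and 0 to 2 when 1 library was left out, and members differing between the lines were 1 with DESeq2, 1 with no filter and 0 otherwise. Genes called in the other lists, 4 in HCT116, were 11 with DESeq2, 8 with no filter, 9 with at least 10 counts in every library, 1 in each limma fit and 1 to 13 when 1 library was left out. In NCI-H716 they were 6, then 17 with DESeq2, 20 with no filter, 0 in each limma fit and 3 to 21 when 1 library was left out. Over all genes, 375 calls in HCT116 became 759 with DESeq2, 683 with no filter, 615 with at least 10 counts in every library, 569 after thinning, 35 to 47 in limma and 23 to 1076 without 1 library. In NCI-H716, 71 became 364 with DESeq2, 777 with no filter, 2397 with the block, 6 to 8 in limma and 38 to 1386 without 1 library. When 1 library was left out, log2 values ran from -0.02 to 0.67 for *SLC1A1* in HCT116 (negative without control replicate 1, or at -0.01 without Z325 replicate 2), from -1.0 to 0.12 in NCI-H716 (positive without control replicate 1, or at 0.03 without Z325 replicate 1), from -0.62 to 1.04 for *SLC43A1* (positive without control replicate 1, or at 0.24 without Z325 replicate 2), from -0.03 (without Z325 replicate 1) to 0.42 for *SLC1A5*, and from -1.38 to 0.03 (without HCT116 Z325 replicate 2) for the difference between lines of *SLC1A4*. *SLC43A1* also reversed in limma (0.15 or 0.23 with a pseudocount of 1 or 0.1, and 0.15 with the FPKM filter) and with the block (0.12). Halving the HCT116 counts or thinning each library to the shallowest in its line, both chosen after seeing the data, called 0 members. The cause of these shifts was not tested. Depth limits *SLC6A9* in both lines and *SLC7A2* in the shallow HCT116 library.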
